A study of Rattus norvegicus with 4 samples.

Results

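This report describes 10 genes that take up lipoprotein cholesterol, move it inside the cell or export it: the receptors Scarb1, Lrp8, Vldlr and Lrp1, the transport proteins Stard4, Stard5 and Npc2, the exporters Abca1 and Abcg1, and the apolipoprotein Apoe. They were chosen by name, as all probe sets annotated with exactly that 1 gene symbol, and came to 25 of the 31099 probe sets and 10 of the 14217 named genes outside the array controls. The cells were primary granulosa cells, the follicle cells that make estradiol and later progesterone, obtained from estradiol-treated immature Sprague-Dawley females aged 23 to 25 days. All cultures were serum-free, on dishes coated beforehand with 1% serum, and all were infected with an adenovirus for 4 h before 24 h with or without follicle-stimulating hormone (FSH, 100 ng/ml). The groups were GFP vehicle (control virus, no hormone), GFP FSH, FOXOA3 FSH (FOXO1, a forkhead transcription factor, in a constitutively active version) and FOXOA3-mDBD FSH (the same protein mutated in its DNA-binding domain), with 1 array each. Where the arrays are listed in turn, they are called vehicle, FSH alone, FOXOA3 and FOXOA3-mDBD, the last 3 all with FSH. The controls were thus infected as well, and whether the RNA of an array came from 1 culture or several is not given in the sources used here.

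Granulosa cells have little access to blood-borne low-density lipoprotein before ovulation, and steroid hormones are made from cholesterol that is synthesised in the cell or delivered by lipoproteins. Scarb1 (SR-BI) takes cholesteryl esters from high-density lipoprotein without engulfing the particle, whereas Lrp8, Vldlr and Lrp1 belong to 1 family of lipoprotein receptors and internalise their ligands, and Lrp8 and Vldlr also transmit the signal of reelin. Inside the cell, Npc2 hands cholesterol on within the lysosome and the soluble START-domain proteins carry lipid between membranes, Stard4 being a sterol carrier and a known target of the sterol-regulated factor SREBP2. Abca1 and Abcg1 export cholesterol to apolipoproteins and high-density lipoprotein and are classical targets of the oxysterol-sensing LXR receptors, as is Apoe.

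Values are the deposited MAS5 signals on a linear scale. A signal was treated as measured above 100.5, the median of all rat probe sets over the 4 arrays, and lower signals were raised to this floor before a ratio was taken. Each gene is read by its brightest probe set unless stated, and a ratio of at least 2-fold is called higher or lower. With 1 array per group no difference has a replicate check and no p-value is given. Foxo1, the gene carried by both FOXO1 vectors, read 8149 with vehicle, 2862 with FSH alone, 3834 with FOXOA3 and 961 with FOXOA3-mDBD by its brightest probe set. Its signal therefore does not show either vector and was lowest on the array labelled FOXOA3-mDBD. Whether the probe set reads the vector RNA is not stated by the labels, so the arrays are called by their labels without a check of the transgene. Of the 10 genes, 9 were above the floor on all 4 arrays, and Abcg1 on 3 of them. The 2% trimmed means lay at 500.1 to 500.2 on all arrays. The poly-A spike controls had a geometric mean of 21.4 with vehicle and 22.6 with FOXOA3, against 395 with FSH alone and 539 with FOXOA3-mDBD, so that the arrays differ in this control in a way that follows neither hormone nor vector. The hybridisation controls split the same way, at 1647 and 1224 against 2759 and 2855. The 3' to 5' ratio of beta-actin was 5.15 on GFP vehicle and between 9.79 and 12.0 on the other arrays. That of GAPDH was 2.32 with vehicle, 2.46 with FSH alone, 2.84 with FOXOA3 and 3.15 with FOXOA3-mDBD. The part of these controls in the ratios below was not tested. Of 13 granulosa cell markers on the array, 12 or 13 were above the floor on each array, and the defining markers Inha and Foxl2 were above it on all 4. Their levels differed between arrays. With FSH, 7 of the 13 were higher (median log2 ratio 1.00) and 1, Wt1, was 2.83-fold lower. Foxl2 read 5546 with vehicle and 3536 with FSH alone. In FOXOA3 FSH against GFP FSH, 8 were lower and 0 higher (-1.30). In FOXOA3-mDBD FSH against GFP FSH, 10 were lower (-1.83) and 1, Kitlg, was 3.72-fold higher. Gata4 was 10.5-fold lower in that comparison, Inha 6.93-fold and Foxl2 3.56-fold. Scarb1, Lrp8 and Stard4 differed in the same directions as these list medians. The part of the granulosa cell content in their values was not tested.

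**Figure D1:**
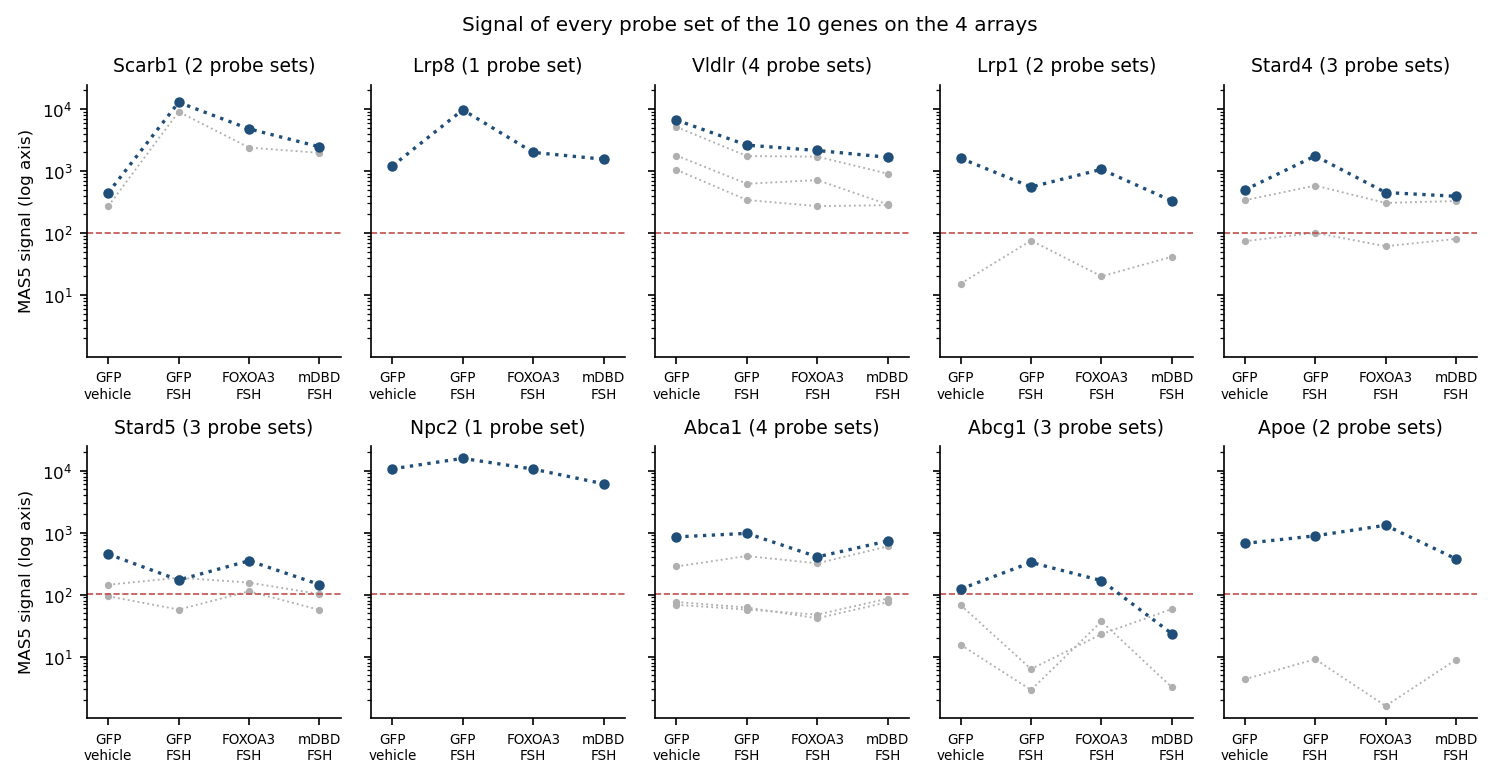
MAS5 signal (log axis) of all 25 probe sets of the 10 genes on the 4 arrays. Dark points are the brightest probe set of a gene, grey points its other probe sets, dotted lines join the values of 1 probe set, mDBD stands for FOXOA3-mDBD, and the dashed line is the floor of 100.5. Scarb1 and Lrp8 peak on GFP FSH, and all 4 probe sets of Vldlr are highest on GFP vehicle.

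Scarb1 had the widest ratio between its highest and lowest array among the 10 genes. Its brighter probe set read 446 with vehicle, 12829 with FSH alone, 4790.2 with FOXOA3 and 2463 with FOXOA3-mDBD. The second probe set gave 272, 9056, 2389.9 and 1969.8 in the same order, so both placed the arrays in the same sequence. On either FOXO1 vector the signal was thus far below that of GFP FSH and still well above that of vehicle. Against GFP vehicle, Scarb1 was 10.7-fold higher with FOXOA3 (log2 ratio 3.43, or 3.14 by the second probe set) and 5.52-fold higher with FOXOA3-mDBD (2.47 and 2.86). With FSH alone the log2 ratio to vehicle was 4.85 and 5.06, and the gene ranked 12 from the top of 9578 measured genes. Between the vectors the signal was 1.95-fold higher on FOXOA3 FSH than on FOXOA3-mDBD FSH by the brighter probe set, with log2 ratios of 0.96 and 0.28 for the pair. Quantile normalization carried the first of these to 1.14, past 2-fold, whereas centring on the median gave 0.72 and averaging the probe sets 0.62.

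Lrp8, also known as apolipoprotein E receptor 2, was read by 1 probe set. Its signal was 1209.6 with vehicle, 9715 with FSH alone, 1999 with FOXOA3 and 1553 with FOXOA3-mDBD. Only the GFP FSH array stood clearly apart among these 4. Relative to vehicle the gene was 8.03-fold higher with FSH alone, but 1.65-fold with FOXOA3 and 1.28-fold with FOXOA3-mDBD, both within 2-fold. Its ratio in FOXOA3 FSH against GFP FSH (log2 ratio -2.28) ranked 32 from the bottom of 9941 measured genes, and that of FOXOA3-mDBD FSH against GFP FSH (-2.65) ranked 95 from the bottom of 9748. Scarb1 and Lrp8 therefore shared their direction in these 3 comparisons and differed in how far above vehicle they remained with a FOXO1 vector. The comparisons with GFP FSH all use the same GFP FSH array and are not independent.

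Vldlr, the very-low-density lipoprotein receptor and the closest relative of Lrp8 among the 10 genes, ran the other way with FSH. The brightest of its 4 probe sets read 6646 with vehicle, 2618 with FSH alone, 2148 with FOXOA3 and 1669 with FOXOA3-mDBD. All 4 probe sets were above the floor on every array and lower with FSH, with log2 ratios to vehicle from -1.34 to -1.61. Neither FOXO1 vector brought the signal back towards vehicle: the ratios of FOXOA3 FSH to GFP vehicle ran from -1.31 to -1.94 over the probe sets, and those of FOXOA3-mDBD FSH from -1.89 to -2.62. FOXOA3 FSH lay within 2-fold of GFP FSH in all 4 (from -0.33 to 0.20). For FOXOA3-mDBD FSH against GFP FSH, 1 probe set passed 2-fold (-1.11) and the brightest gave -0.65. Vldlr was 3.09-fold lower on FOXOA3 FSH than on GFP vehicle. The spike controls of these 2 arrays were alike. The vehicle array, alone in its high Vldlr signal, was also alone in its low beta-actin 3' to 5' ratio (5.15). By the GAPDH ratio it was not set apart, at 2.32 beside 2.46 with FSH alone. The part of these controls in the Vldlr values was not tested.

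Lrp1, a large scavenger receptor that also clears proteases and apolipoprotein E-bearing remnants, gave 1610.3 with vehicle, 554 with FSH alone, 1066 with FOXOA3 and 329.9 with FOXOA3-mDBD. It was 2.91-fold lower with FSH alone and 4.88-fold lower on FOXOA3-mDBD FSH than on vehicle, but within 2-fold of vehicle on FOXOA3 FSH. FOXOA3 FSH was 3.23-fold above FOXOA3-mDBD FSH (log2 ratio 1.69), or by a log2 ratio of 0.97 with the floor at the 75th percentile. A second Lrp1 probe set was under the floor on every array and gives no ratio. The markers fixed for theca, stroma and smooth muscle, cell types in which Lrp1 is also abundant, had a summed signal of 26300.1 with vehicle, 15362 with FSH alone, 27404 with FOXOA3 and 4985 with FOXOA3-mDBD. These sums hide members that go opposite ways. Ogn alone gave 12973 of the sum with FSH alone, where Acta2 (192), Tagln (902) and Col3a1 (170) were all below their vehicle signals of 3711, 9167 and 2607. Between 4 and 9 of the 15 markers were above the floor per array, and 4 were under it on all arrays, among them the theca enzyme Cyp17a1. Lrp1 was also high on the 2 arrays with low spike controls and low on the 2 with high ones. The part of such cells and of the spike difference in the Lrp1 values was not tested, and in RNA from mixed cells, fewer cells of a type and less RNA per cell cannot be told apart.

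**Figure D2:**
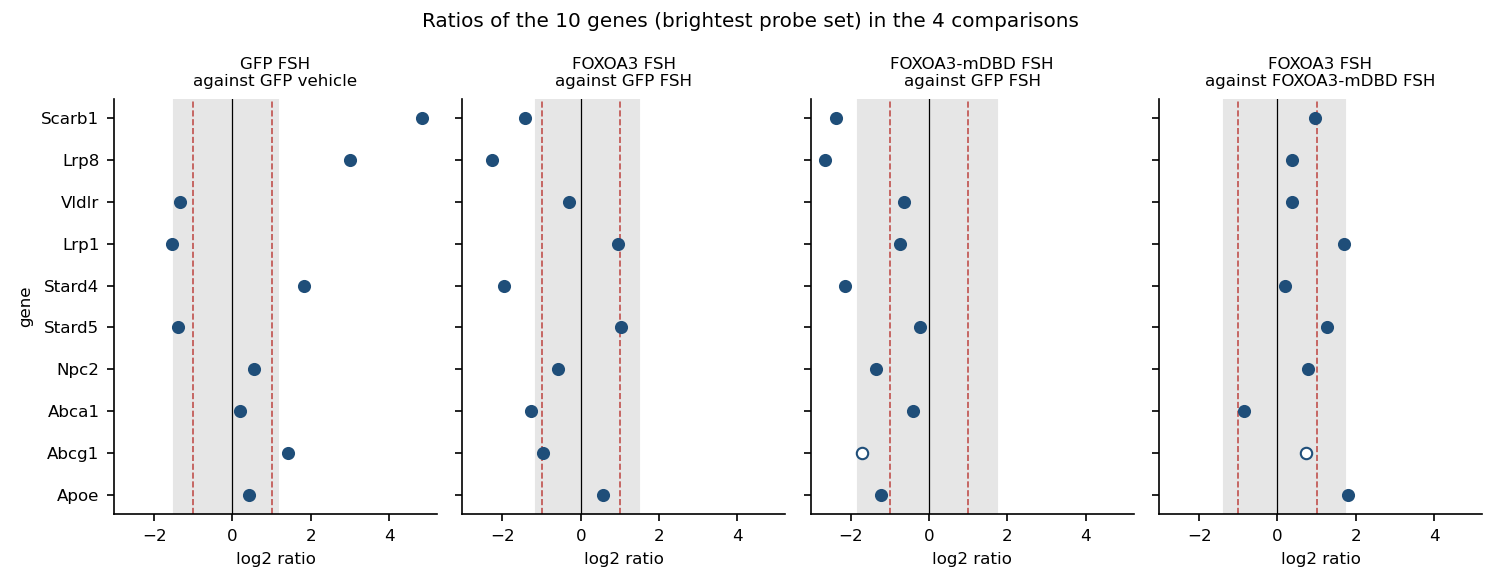
Log2 ratio of the brightest probe set of each of the 10 genes in 4 comparisons, 1 array against 1 array. The grey band spans the 5th to 95th percentile of all measured genes, dashed lines mark 2-fold, and open points are lower bounds because the dimmer signal was at the floor. Scarb1, Lrp8 and Stard4 lie beyond the band to the right with FSH and beyond it to the left with either FOXO1 vector.

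Among the intracellular carriers, Stard4 was high on the GFP FSH array alone, as Lrp8 was. Its brightest probe set read 496 with vehicle, 1755 with FSH alone, 451 with FOXOA3 and 392 with FOXOA3-mDBD. With a FOXO1 vector the signal was at the vehicle level, with log2 ratios to GFP vehicle of -0.14 and -0.34. The size of the difference depended on the probe set. A second one gave 338, 584, 306 and 329, in which the log2 ratio with FSH was 0.79 in place of 1.82, and those against GFP FSH were -0.93 and -0.83 in place of -1.96 and -2.16. The third was above the floor on GFP FSH alone. The direction on GFP FSH was thus shared by both probe sets that were measured throughout, while the 2-fold call rests on 1 of them.

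Stard5, a related START-domain protein, was dimmer and ran opposite to Stard4. Its brightest probe set read 449 with vehicle, 172 with FSH alone, 351 with FOXOA3 and 145 with FOXOA3-mDBD, the same order of arrays as for Lrp1 and the same split as the spike controls, whose part was not tested. FSH gave a log2 ratio of -1.39, and FOXOA3 FSH was 2.04-fold above GFP FSH. Under quantile normalization the latter log2 ratio was 0.77 and under centring on the median 0.98, both short of 2-fold. A second probe set of Stard5 did not bear the pattern out, with 144, 187, 156 and 102 and a log2 ratio with FSH of 0.38. The third read 94.1, 57.3, 113 and 56.6, above the floor on FOXOA3 FSH alone, and was higher on the same 2 arrays as the brightest one. The 2 brighter probe sets thus disagree in sign with FSH, and also in FOXOA3 FSH against GFP FSH (1.03 and -0.26). They agree in sign in FOXOA3 FSH against FOXOA3-mDBD FSH (1.27 and 0.62). Which reflects the transcript was not tested.

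Npc2 was read by 1 probe set. It gave bright signals on all arrays, at 10664 with vehicle, 15721 with FSH alone, 10560.5 with FOXOA3 and 6116 with FOXOA3-mDBD. FSH against vehicle stayed within 2-fold (1.47-fold), FOXOA3 FSH differed from vehicle by 1.01-fold, and FOXOA3-mDBD FSH was 2.57-fold below GFP FSH.

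Of the exporters, Abca1 was within 2-fold of vehicle with FSH alone. Its brightest probe set read 850.4 with vehicle, 972 with FSH alone, 406 with FOXOA3 and 732 with FOXOA3-mDBD, so that the FOXOA3 FSH array alone was low. FOXOA3 FSH was 2.40-fold below GFP FSH and 2.10-fold below GFP vehicle. Both calls were sensitive: a floor at the 75th percentile brought the first log2 ratio from -1.26 to -0.84, and an offset in place of the floor brought the second from -1.07 to -0.98. The next probe set, at 284, 419, 319 and 599, gave log2 ratios of -0.39 and 0.17 for the same pair of comparisons, and was highest on FOXOA3-mDBD FSH, where it was above GFP vehicle by a log2 ratio of 1.08. In both, FOXOA3 FSH was lower than FOXOA3-mDBD FSH, with log2 ratios of -0.85 and -0.91. The other 2 Abca1 probe sets were under the floor throughout.

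Abcg1 was dim, with 123 with vehicle, 330.0 with FSH alone, 168 with FOXOA3 and 23.4 with FOXOA3-mDBD. It was 2.68-fold higher with FSH, and at least 3.28-fold lower on FOXOA3-mDBD FSH than on GFP FSH. FOXOA3 FSH was above FOXOA3-mDBD FSH by at least 1.68-fold. With the floor at the 25th percentile the log2 ratio was 2.62, but it then rests on signals far under the main floor. It was 0.56 under quantile normalization, 0.50 under centring on the median and 0.25 with all probe sets averaged. Both other Abcg1 probe sets were under the floor on all arrays.

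Apoe, the apolipoprotein ligand of Lrp8, Vldlr and Lrp1 and an acceptor of exported cholesterol, differed between the vectors. Its signal was 669 with vehicle, 886 with FSH alone, 1312 with FOXOA3 and 376 with FOXOA3-mDBD. FOXOA3 FSH was the highest array and FOXOA3-mDBD FSH the lowest, 3.49-fold apart, with GFP FSH 1.32-fold above vehicle between them. The log2 ratio to GFP FSH was 0.57 with FOXOA3, within 2-fold, and -1.24 with FOXOA3-mDBD, the latter -0.71 with the floor at the 75th percentile. A second Apoe probe set was under the floor on every array. Macrophages also express Apoe and Abca1. Of 13 leukocyte markers on the array, 3 to 5 were above the floor per array. Ptprc, Cd68 and Itgam were among the 7 under it on all 4. Other macrophage markers were above it on some arrays. Csf1r read 177 with vehicle, 57.3 with FSH alone, 126 with FOXOA3 and 102 with FOXOA3-mDBD. Mrc1, Adgre1 and Aif1 were above the floor on 1 or 2 arrays each, with signals up to 137. The summed signal of the 13 markers was 3070.3 with vehicle, 1852 with FSH alone, 4479 with FOXOA3 and 2119 with FOXOA3-mDBD. Most of it came from Cd14 and Lyz2, and the part of such cells in the Apoe values was not tested.

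Counted together, 4 of the 10 genes were higher with FSH and 3 lower, where 6.84% of all 9578 measured genes were higher and 11.1% lower. The higher genes were Scarb1, Lrp8, Stard4 and Abcg1, and the lower ones Vldlr, Lrp1 and Stard5. In FOXOA3 FSH against GFP FSH, 4 were lower (Scarb1, Lrp8, Stard4 and Abca1) and Stard5 was higher, against 6.99% of genes lower and 11.1% higher. In FOXOA3-mDBD FSH against GFP FSH, 6 were lower (Scarb1, Lrp8, Stard4, Npc2, Abcg1 and Apoe) and 0 higher, beside 19.1% of genes lower and 12.5% higher. The median log2 ratio of the 10 genes was 0.48, -0.77 and -1.30 in these comparisons, and that of all measured genes -0.00, 0.04 and -0.16. In FOXOA3 FSH against FOXOA3-mDBD FSH, 3 genes were higher (Lrp1, Stard5 and Apoe) and 0 lower, where 19.0% of genes were higher and 9.24% lower. The genes were picked with such differences already known, so these counts are descriptions.

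Against GFP vehicle, FOXOA3 FSH had 1 gene higher, Scarb1, and 2 lower, Vldlr and Abca1, with 5.32% of 9904 genes higher and 4.01% lower. FOXOA3-mDBD FSH had Scarb1 higher and 3 genes lower, Vldlr, Lrp1 and Stard5, with 13.0% of 9861 genes higher and 22.5% lower. The 4 genes that were higher with FSH split here: Scarb1 was past 2-fold above vehicle with both vectors, Lrp8 and Stard4 were within 2-fold of it with both, and Abcg1 was within 2-fold with FOXOA3 and under the floor with FOXOA3-mDBD.

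The RefSeq table used here (build GRCr8) held the sequence before the start site of 6 of the 10 genes. The 250 bases before each start were searched on both strands. Lrp1 and Stard5 are shown because their brightest probe sets ordered the 4 arrays alike, and Abca1 because it was lowest with FOXOA3. Each is printed 5' to 3' on the gene's strand, with the forkhead core AAACA and the FOXO core GTAAA, on either strand, in capitals. The Lrp1 sequence lies at chr7:65346197-65346446 on the minus strand, that of Stard5 at chr1:147015054-147015303 on the plus strand, and that of Abca1 at chr5:72596564-72596723 on the minus strand, where it stops at the gene's outermost start.
Lrp1: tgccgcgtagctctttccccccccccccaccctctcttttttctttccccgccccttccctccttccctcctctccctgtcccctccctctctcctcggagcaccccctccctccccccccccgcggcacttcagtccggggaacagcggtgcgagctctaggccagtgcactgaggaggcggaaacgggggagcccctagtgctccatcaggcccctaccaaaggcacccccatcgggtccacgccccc
Stard5: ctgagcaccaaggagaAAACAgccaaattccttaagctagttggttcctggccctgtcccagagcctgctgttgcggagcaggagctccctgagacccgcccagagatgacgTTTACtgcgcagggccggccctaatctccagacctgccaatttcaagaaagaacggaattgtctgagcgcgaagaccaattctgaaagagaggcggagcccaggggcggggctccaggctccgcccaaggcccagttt
Abca1: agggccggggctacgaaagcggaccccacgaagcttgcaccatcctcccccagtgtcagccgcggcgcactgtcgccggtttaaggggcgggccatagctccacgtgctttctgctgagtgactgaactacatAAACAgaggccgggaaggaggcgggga
Stard5 held both cores once, with the matches starting at positions -234 and -138 from the start site, Abca1 held AAACA once, and Lrp1 held neither. Apoe, with 3 windows, held both cores in the outermost one (positions -125 and -201). Its other windows started 1117 and 1296 bases inside the gene, and the latter held AAACA. The single Vldlr window started 917 bases inside the gene and held neither core, as did that of Npc2. AAACA was present in 46.9% and GTAAA in 29.8% of the 33360 distinct windows of 250 bases in the table. The longer FOXO-binding element GTAAACA, which contains both, occurred in 3.21% of windows and in none of the windows of these 6 genes (the others being Vldlr, Npc2 and Apoe). The same held for the sterol regulatory element TCACNCCAC (0.977% of windows) and for the cAMP response element TGACGTCA (1.59%), while its core TGACG (18.2%) was found in Stard5 alone. Npc2 held the CCAAT box on 3 occasions and Stard5 on 2. The Apoe window that started 1296 bases inside the gene held it once. The box was present in 34.0% of windows. A match of letters is a description and not evidence of binding.

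The partners of the 10 genes were described from lists of other genes of the same pathways. Of all measured genes, 6.84% were higher and 11.1% lower with FSH. The shares were 11.1% and 6.99% in FOXOA3 FSH against GFP FSH, and 12.5% and 19.1% in FOXOA3-mDBD FSH against GFP FSH. The medians of all measured genes in these comparisons were -0.00, 0.04 and -0.16. For lipoprotein uptake, 23 of 28 listed genes were on the array. With FSH, 0 of 15 measured partners were higher and 3 lower, with a list median of -0.30. The lower ones were Dab2, an endocytic adaptor of the receptor family, at 8.33-fold, the receptor Lrp10 at 2.71-fold and the sorting receptor Sorl1 at 2.56-fold, all lower on the 2 arrays with high spike controls than on the other 2. In FOXOA3 FSH against GFP FSH, 6 of 16 were higher and 1 lower (median 0.75), the lower one being the lipoprotein lipase Lpl at 2.68-fold. Apart from Reln, each of the higher partners was also higher on both arrays with low spike controls than on the other 2. The part of the spike difference in these ratios was not tested. In FOXOA3-mDBD FSH against GFP FSH, 5 were higher and 5 lower (median 0.28), and Lpl was again among the lower ones, at 4.22-fold.

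The largest ratio among these partners was that of reelin (Reln), the secreted ligand of Lrp8 and Vldlr. Its signal was 307 with vehicle, 154 with FSH alone, 3136 with FOXOA3 and 786 with FOXOA3-mDBD. FOXOA3 FSH was thus the highest array for the ligand, 20.4-fold above GFP FSH, while its receptor Lrp8 was 4.86-fold lower in that comparison. FOXOA3-mDBD FSH was 5.11-fold above GFP FSH for Reln. A dimmer second Reln probe set was above the floor on FOXOA3 FSH alone, at 144. Dab1, the adaptor that passes on the reelin signal, was under the floor on all arrays. The summed theca and stroma marker signal given beside Lrp1 was also highest on FOXOA3 FSH, though through Dcn (12504 against 624 with vehicle) and Col3a1 (7556 against 2607), while Tagln, Acta2 and Ogn were below vehicle there. The part of these cells in the Reln values was not tested.

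Some partners were distinct on the FOXOA3-mDBD FSH array. Lrp12, a receptor of the same family, gave 1174, 1074 and 1185 on the first 3 arrays and 5449 there. Lrpap1, the chaperone that keeps newly made receptors of the family free of ligand, read 1832, 2053, 1355 and 592, and was 3.47-fold lower on FOXOA3-mDBD FSH than on GFP FSH. The fatty acid scavenger receptor Cd36 was under the floor on both GFP arrays and gave 191 with FOXOA3 and 463 with FOXOA3-mDBD. Mylip, a ubiquitin ligase that degrades Lrp8 and Vldlr, read 1508, 878, 1496 and 1835 on the 4 arrays. It was 2.09-fold higher on FOXOA3-mDBD FSH than on GFP FSH and within 2-fold in the FSH and FOXOA3 comparisons.

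**Figure D3:**
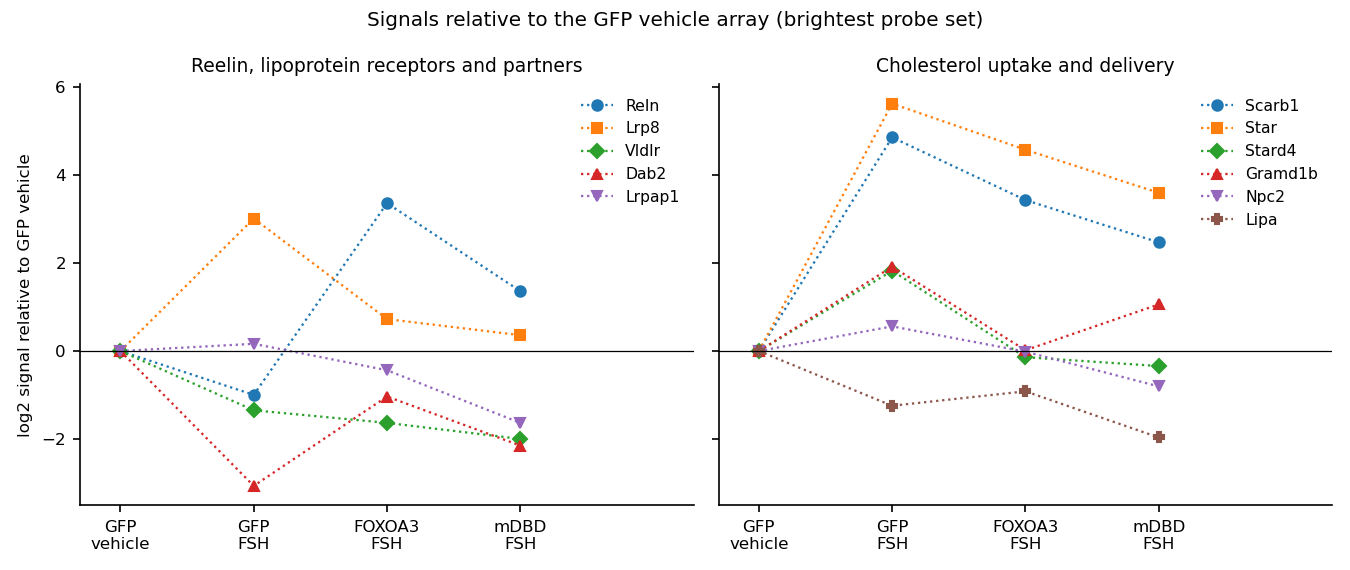
Log2 signal of receptors, ligand and carriers relative to the GFP vehicle array (brightest probe set, 1 array per group; mDBD stands for FOXOA3-mDBD; dotted lines join the values of 1 gene). Reln is highest on FOXOA3 FSH where Lrp8 is near vehicle, and Star and Scarb1 remain above vehicle on all 3 FSH arrays while Stard4 does not.

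For intracellular sterol transport, 25 of 30 listed genes were on the array and 22 were measured. With FSH, 3 were higher and 2 lower (median 0.05). Star, which carries cholesterol into mitochondria, was higher by 48.9-fold, Gramd1b, which moves cholesterol from the plasma membrane to the endoplasmic reticulum, by 3.77-fold and the mitochondrial protein Tspo by 2.02-fold. The lower genes were Lipa, the lysosomal esterase that frees cholesterol from lipoprotein, at 2.36-fold and the oxysterol-binding protein relative Osbpl5 at 2.07-fold. In FOXOA3 FSH against GFP FSH, Gramd1b was 3.72-fold lower, Tspo 2.75-fold and Star 2.07-fold, with Osbpl11 2.14-fold higher. FOXOA3-mDBD FSH against GFP FSH had Osbpl11 and Osbpl3 higher, by 3.12-fold and 2.43-fold, and Tspo and Star lower, by 6.42-fold and 4.06-fold. Gramd1b was not called there by its brightest probe set, which read 289.9, 1092, 294 and 603 on the 4 arrays. A second Gramd1b probe set read 157, 359, 194 and 72.1, lowest on FOXOA3-mDBD FSH and under the floor there. The 2 probe sets thus order the vectors differently. Star resembled Scarb1 in staying above vehicle with a vector, by 23.7-fold with FOXOA3 and 12.0-fold with FOXOA3-mDBD. Npc1, the lysosomal partner of Npc2, was not analysed here.

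Of the efflux and LXR partners, 26 of 27 were on the array but 10 were measured in the FSH comparison. There, 0 were higher and 1 was lower, the retinoid receptor Rxrb at 2.47-fold, which also followed the split of the spike controls. FOXOA3 FSH against GFP FSH had 1 higher, again Rxrb at 2.34-fold, and 1 lower, the cholesterol-esterifying enzyme Lcat by at least 2.21-fold. In FOXOA3-mDBD FSH against GFP FSH, 4 of 10 measured partners were lower and 0 higher, with a list median of -0.81. All 4 were exporters or lipid transporters of the ABCA family, with Abca5 at 3.34-fold, Abca7 at 2.96-fold or more and Abca3 at 2.42-fold. The LXR receptor Nr1h2 stayed within 2-fold in every comparison, with signals of 802, 886, 629.7 and 463, and Nr1h3 was under the floor throughout. Apoa1, Abcg5 and Abcg8 were also under it.

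For comparison, the cholesterol biosynthesis list had 16 of 17 measured genes higher with FSH (median 1.81), 17 lower with FOXOA3 (-1.85) and 16 lower with FOXOA3-mDBD (-2.24), both against GFP FSH. Of the 10 genes, Scarb1, Lrp8 and Stard4 were called in those directions in all 3 comparisons, Abcg1 in those with FSH and FOXOA3-mDBD, and Vldlr, Lrp1 and Stard5 were called in the opposite direction with FSH.

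**Figure D4:**
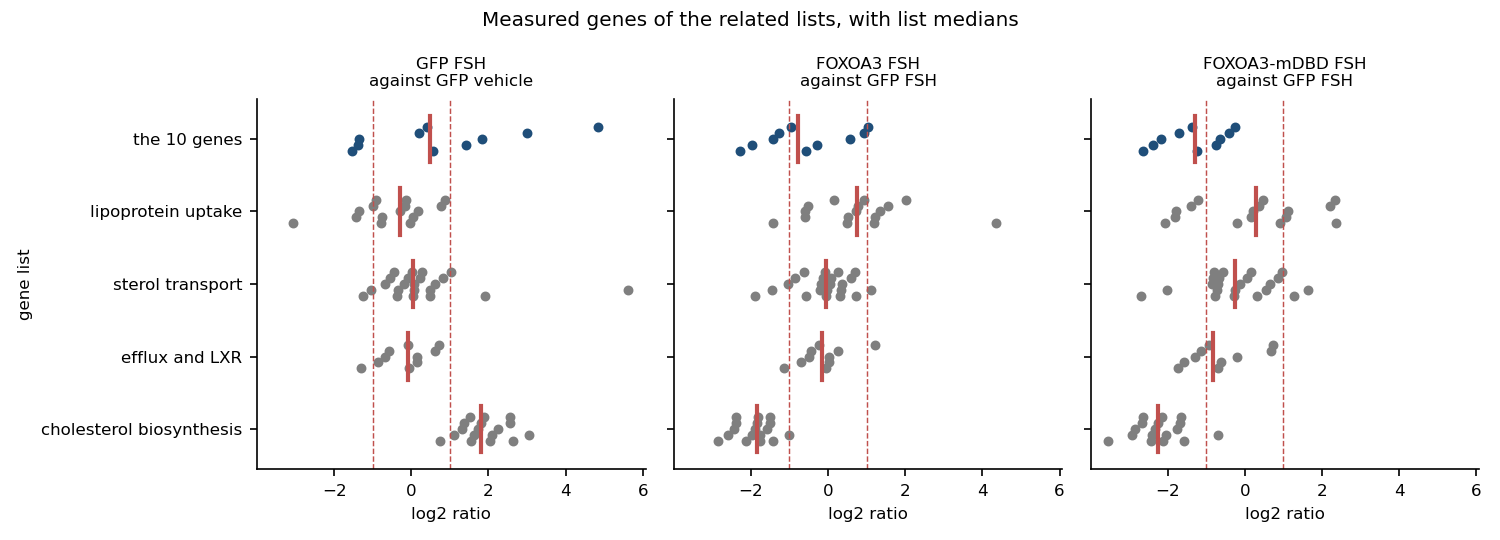
Log2 ratios of the measured genes of each list in 3 comparisons, 1 array against 1 array, with the list median as a red bar and 2-fold as dashed lines. The 10 genes spread on both sides of 0 with FSH (median 0.48), whereas cholesterol biosynthesis genes lie together at a median of 1.81.

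Genes with the most similar profile were sought over the 4 arrays among 8114 genes above the floor on all of them, by the Euclidean distance between log2 signals after centring each gene on its mean. The nearest to Scarb1 were Tmem86a at a distance of 0.59, Ddit4 at 0.86 and Star at 0.93. For Lrp8 they were Hsd17b1 at 0.32, Creg1 at 0.38 and Alas1 at 0.41, and for Stard4 they were Tmem184c at 0.12, Cdt1 at 0.17 and Tmem97 at 0.20. With 4 arrays and 8114 genes, small distances occur for many profiles, and these values are descriptions.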

How the data were processed

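The authors' deposited values were probe set intensity values on a linear scale. The submitters' processing notes name MAS5. Neither a version nor settings of it are given by the sources used here. This method scales arrays to a common mean, which hides differences in total RNA per cell, and at low signal its values scatter widely. No further scaling was applied. Of 31099 probe sets, 57 were controls, 20832 had 1 gene symbol, and 436 with several and 9780 with none were left unnamed. Each gene was read by its brightest probe set on average over the arrays. The floor of 100.5 was the 50th percentile of the non-control signals, and a gene was measured in a comparison if its higher signal exceeded it. All 6 pairs of arrays were compared at a threshold of 2-fold, without p-values.

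The 10 genes and the lists were chosen with earlier results of these data known. All 10 are named with their probe sets, as are at most 3 genes higher and 3 lower with the largest ratios per list and comparison, genes with a known role beside the 10 (such as Dab1, Nr1h2, Nr1h3, Apoa1, Abcg5 and Abcg8), and the 3 nearest profiles of Scarb1, Lrp8 and Stard4. Mylip was named after its values were seen. Of the endothelial, oocyte and luteal markers, 6 of 9, 2 of 5 and 1 of 7 on the array were under the floor throughout. Kdr (endothelial), Gdf9 and Zp2 (oocyte) were above it on all 4 arrays. With FSH, 6 of 6 measured luteal markers, Star among them, were higher (median log2 ratio 5.53). Against GFP FSH, 4 of the 6 were lower with FOXOA3 and 4 with FOXOA3-mDBD. Scarb1, Lrp8 and Stard4 were called in the same directions, and any link was not tested. Alternatives were other floors, an offset, other scalings, other probe set choices and other thresholds. The ratios, calls and quantile normalization were checked on simulated arrays without noise, with known folds set in bright genes. The other steps, and changes in dim genes, were not simulated. All steps were run in Python 3.11.15 with numpy 2.4.6 and pandas 2.3.3.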

Additional observations from a re-analysis of the deposited data

How the results depend on the processing

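Of the 60 ratios of the 10 genes over 6 comparisons, 28 were called at 2-fold, and 13 of these kept their call and direction in each of 7 alternative settings in which they were measured: 5 of Scarb1, 3 each of Lrp8 and Vldlr, and 1 each of Lrp1 and Npc2. Lrp8 and Npc2 have 1 probe set each, so the settings that change the choice of probe sets could not alter their calls. No called ratio changed sign. Averaging all probe sets of a gene ended 15 calls, which were all of those not kept. It takes in probe sets under the floor and, for Stard5 and Abca1, a second one measured on all arrays that differed. For Stard4 it takes in a second one measured on all arrays with smaller ratios. The number of the 10 genes apart by 2-fold then was 3 in place of 7 for GFP FSH against GFP vehicle, 2 in place of 5 for FOXOA3 FSH against GFP FSH, 3 in place of 6 for FOXOA3-mDBD FSH against GFP FSH, and 0 in place of 3 for FOXOA3 FSH against FOXOA3-mDBD FSH. For the last of these, quantile normalization gave 6, a floor at the 75th percentile 1 and a 1.5-fold threshold 7. That floor gave 3 for FOXOA3 FSH against GFP FSH, with 8 genes measured. A 1.5-fold threshold gave 6 in place of 3 for FOXOA3 FSH against GFP vehicle, and a 3-fold threshold gave 3 for GFP FSH against GFP vehicle and 2 for FOXOA3 FSH against GFP FSH. The causes of the shifts under quantile normalization were not tested. Centring on the median moved the median of all genes from -0.16 to 0.03 for FOXOA3-mDBD FSH against GFP FSH and from 0.21 to -0.04 for FOXOA3 FSH against FOXOA3-mDBD FSH. Leaving out Stard4's brightest probe set, whose identifier carries the suffix for shared transcripts of 1 gene, ended its 3 calls. No array could be left out, as each group has 1.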
